A study of Mus musculus with 28 samples.

Results

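The conjugation enzymes described here are the genes of 3 families that attach a polar group to drugs, hormones and bile pigments: glutathione S-transferases (GST), UDP-glucuronosyltransferases (UGT) and cytosolic sulfotransferases (SULT). They were chosen by symbol (Gst followed by class letter a, k, m, o, p, t or z and a number, Ugt1a to Ugt3b, or Sult and a number), with a mean of at least 1 CPM (reads of a gene scaled to a fixed library size) over all 28 libraries. This took 39 of the 23393 genes in the count tables: 18 GST, 14 UGT and 7 SULT genes. A further 20 symbols matched but lay below the minimum, among them 11 of the 18 SULT symbols. Sult2a1 to Sult2a6, hydroxysteroid sulfotransferases, averaged at most 0.0339 CPM each, and Sult3a1 averaged 0.0839 CPM. All 39 genes passed the filter on low counts used for testing.

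GST enzymes couple reduced glutathione to electrophiles, UGT enzymes transfer glucuronic acid from UDP-glucuronate to alcohols, phenols and bilirubin, and SULT enzymes transfer sulfate from the donor PAPS. The conjugates are more soluble in water and leave the hepatocyte through efflux transporters into bile or blood. In liver these genes are known targets of the xenobiotic receptors CAR and PXR, of the aryl hydrocarbon receptor and of Nrf2, and many are expressed at high levels in hepatocytes without any drug.

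Liver RNA was sequenced from 129svj mice aged 11 to 13 months, either wild type (WT) or Sirt6 heterozygotes (HZ). Sirt6 encodes a deacylase of chromatin that uses NAD. By oral gavage they had received 0.5% carboxymethylcellulose (vehicle) or WY-14643 (WY), an agonist of the nuclear receptor PPARα, at 50 mg/kg in that vehicle, and livers were taken after 12 h. Each of the 4 groups (WT vehicle, HZ vehicle, WT WY and HZ WY) held 7 libraries, numbered in the labels. The labels give neither the sex of the mice nor how the Sirt6 allele was made. WY and vehicle libraries were deposited in separate tables and carry separate series of numbers, so effects of WY and of any difference between those series cannot be told apart. The labels do not say in words that each number is a separate mouse, and p-values measure the spread between these libraries.

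Counts assigned to genes came to 15795201 to 20020078 per library, and levels are given as CPM scaled by TMM factors. Sirt6 itself was lower in HZ by 0.97 ± 0.17 (SE) on the log2 scale under vehicle and by 1.04 ± 0.16 under WY (edgeR quasi-likelihood test, adjusted p = 0.00696 and 0.00721). Under vehicle the 7 HZ libraries, at 0.881 to 1.38 CPM, lay below the 7 WT libraries, at 1.91 to 3.52 CPM. The vehicle difference did not pass with the vehicle groups alone (-0.96, adjusted p = 0.172), with vehicle libraries 29 to 39 alone (-0.96, adjusted p = 0.0610) or without HZ vehicle 30 and 38 and HZ WY 14, 15 and 21 (-1.04, adjusted p = 0.0549), and DESeq2 gave it no adjusted p. All 6 hepatocyte markers examined, albumin among them, were expressed in every group. The 4 Y-chromosome genes examined summed to 179 to 278 CPM in every library, and Xist reached at most 0.888 CPM. An earlier analysis of these data set 5 HZ libraries apart (vehicle 30 and 38, WY 14, 15 and 21). The SD over genes of a library's log2 CPM around the median of its group's others was 0.322 to 0.486 in these 5 and 0.291 to 0.371 in the other 23.

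Per kilobase of exon, the 7 highest enzyme genes over all libraries were 4 GST and 3 UGT genes. Length was that of all exons annotated to a gene, joined over its transcripts, at 1473 bases for Gstm1 and 4344 for Gsta3. This order thus depends in part on the annotation, and in CPM Gsta3 averaged 1266 and Gstm1 664. Gstm1, a mu class GST, averaged 450.5 CPM per kb, ahead of Ugt2b36 at 388, Ugt2b5 at 383, Gstp1 at 371, Ugt2b1 at 346, Gsta3 at 291 and Gstz1 at 179. The most abundant SULT gene per kilobase, Sult1a1, averaged 93.6 CPM per kb and ranked at place 14 of the 39. Sult1e1, the estrogen sulfotransferase, was the lowest at 1.21 CPM per kb. In CPM, not corrected for length, the medians of the family sums in WT vehicle were 4658 for GST, 4948 for UGT and 407 for SULT.

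Some members share sequence, which bears on how their reads could be counted. The Ugt1a genes on chromosome 1 have separate first exons joined to the same later exons. In the GENCODE M21 annotation, 50.3 to 82.7% of the exon bases of the 6 Ugt1a members overlapped other genes. Of all 50-base stretches of Gstp2 transcripts, 54.3% also occurred in transcripts of other genes, mostly Gstp1, and the share was 49.8% for Gsta2, 41.7% for Ugt2b5, 33.7% for Gstp1, 28.8% for Gstm3 and 18.9% for Gstm1. Values of these genes are uncertain to the extent that reads could not be placed uniquely.

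WY was accompanied by lower SULT and UGT transcripts in both genotypes, while the GST family split. In WT, 5 of the 39 genes were higher under WY and 18 were lower, against 27.4% of all 12607 genes tested higher and 26.7% lower. In HZ, 6 were higher and 18 lower, against 29.3% and 26.4% of all genes. The share of members called in either direction was thus near that of all genes (54.1% in WT and 55.7% in HZ), and 18 of the 23 called in WT and 18 of the 24 called in HZ were lower. The median log2 change was -1.20 in WT and -1.19 in HZ for SULT, -0.44 and -0.36 for UGT, and -0.03 and -0.22 for GST, beside -0.02 and 0.01 over all genes tested. These comparisons share no library, but they share a fit, its estimate of spread and the separate deposit of WY and vehicle libraries. In that fit, 4 genes were higher and 15 lower in both genotypes, with 11 called in neither and 0 called in opposite directions. With only the groups compared, 25 members were called in WT and 20 in HZ. In bulk liver, fewer cells of a type and less RNA per cell cannot be told apart. Of the 6 hepatocyte markers, 5 were also lower under WY in each genotype, and the 6 summed to 75224 to 101881 CPM in WT vehicle and 62367 to 72272 CPM in WT WY. They summed to 64099 to 99660 CPM in HZ vehicle and 39273 to 77355 CPM in HZ WY. All 5 periportal hepatocyte markers were lower in both genotypes, with median log2 changes of -1.13 and -1.23 beside -0.44 and -0.52 for the 6 hepatocyte markers above. Of 7 pericentral hepatocyte markers, 2 were higher and 3 lower in WT (median -0.33). In HZ, 1 of these 7 was higher and 4 were lower (median -0.58). The part of these marker lists in the enzyme changes was not tested.

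**Figure D1:**
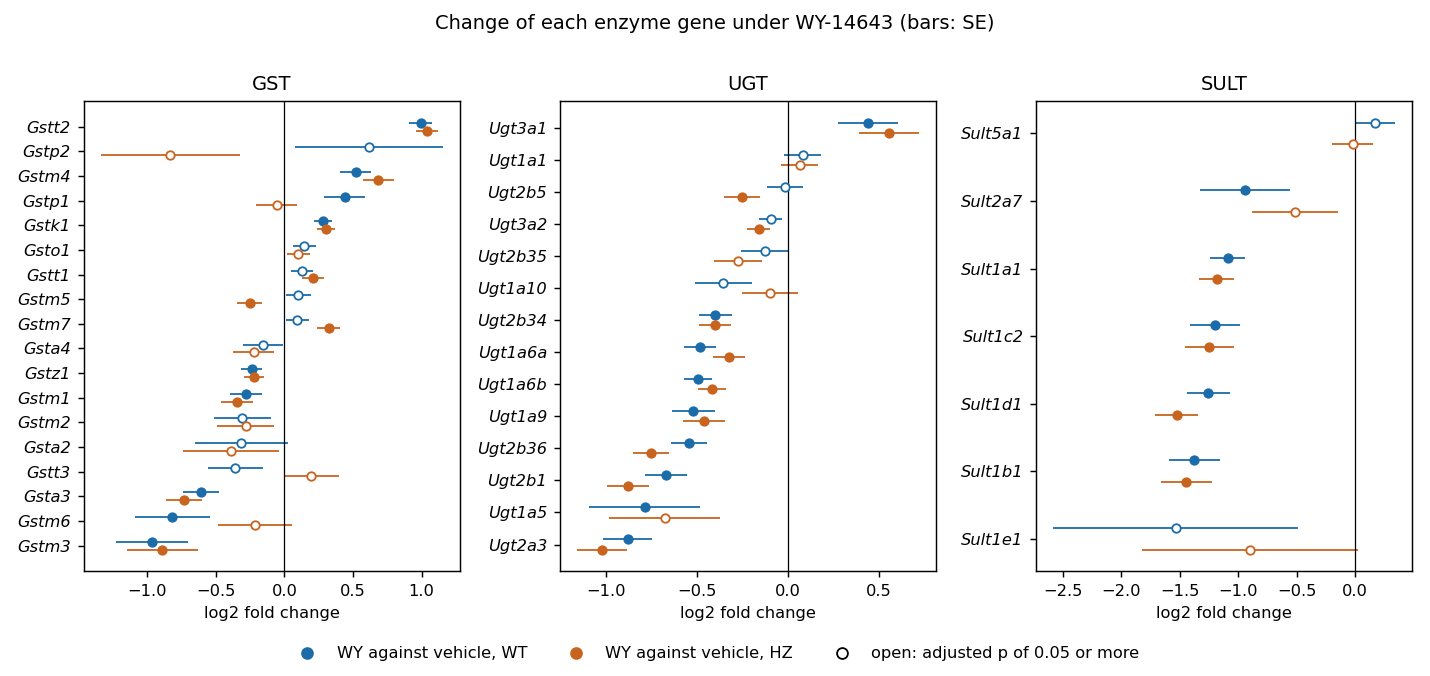
Log2 fold change of each of the 39 enzyme genes under WY against vehicle (x axis), with SE, in WT (blue) and HZ (orange), in 1 panel per family. Filled points passed an adjusted p below 0.05. Filled points of 4 SULT genes lie beyond -1 in both genotypes, UGT points lie mostly between -1.02 and 0, and GST points spread on both sides of 0.

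The sulfotransferases showed the largest falls. Of the 7 SULT genes, 5 were lower in WT and 4 in HZ, and 0 were higher. Summed over the family, libraries held 331 to 519 CPM in WT vehicle (median 407) and 402 to 551 in HZ vehicle (median 461). Under WY they held 167 to 281 CPM in WT (median 203) and 158 to 270 in HZ (median 193). No WY library reached the level of any vehicle library.

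Sult1a1, the phenol sulfotransferase and the most abundant of the family, lies on chromosome 7 (GRCm38, 126672865 to 126676432, minus strand). It was at 149 to 246 CPM in WT vehicle (median 175) and 168 to 209 in HZ vehicle (median 204), and at 67.0 to 126 in WT WY (median 91.1) and 55.8 to 122.99 in HZ WY (median 81.2). The WY and vehicle libraries did not overlap in either genotype. The log2 change was -1.09 ± 0.15 in WT and -1.19 ± 0.15 in HZ (edgeR adjusted p = 9.46e-07 and 2.40e-07). Non-overlapping groups were found for 11 lower and 3 higher members in WT, against 12.1% and 15.7% of all genes, and for 5 lower and 2 higher members in HZ, against 9.9% and 12.6%.

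Sult1d1 and Sult1b1 lie beside each other on chromosome 5 with Sult1e1 (GRCm38, 87513339 to 87591594). Sult1d1, a mouse enzyme for catecholamines and phenols, was at 95.5 to 192 CPM in WT vehicle (median 156) and 49.1 to 91.9 in WT WY (median 61.2). In HZ it was at 146 to 250 CPM under vehicle (median 180) and 42.5 to 94.8 under WY (median 67.9). Again no WY library reached a vehicle library, with log2 changes of -1.25 ± 0.18 and -1.52 ± 0.18 (edgeR adjusted p = 2.24e-06 and 1.10e-07). Sult1b1, which acts on phenols and thyroid hormones, went from 34.1 to 44.7 CPM (median 38.4) in WT vehicle to 10.7 to 21.2 (median 15.1) in WT WY. The HZ libraries held 24.1 to 62.2 CPM (median 38.6) under vehicle and 8.99 to 29.85 (median 15.4) under WY, where the groups overlapped. Its log2 changes were -1.38 ± 0.22 and -1.44 ± 0.22 (edgeR adjusted p = 7.96e-06 and 3.42e-06).

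Sult1c2, a low transcript, was at 3.27 to 7.404 CPM in WT vehicle (median 4.42) and 1.5004 to 2.51 in WT WY (median 2.12). The HZ libraries held 4.03 to 8.15 CPM (median 5.09) and 1.19 to 3.70 (median 2.20), again without overlap. The changes of -1.20 ± 0.21 and -1.25 ± 0.21 were close to those of the abundant members (edgeR adjusted p = 2.27e-05 and 8.98e-06). Sult5a1 did not follow them. It was at 17.55 to 43.1 CPM in WT vehicle (median 29.0), 16.9 to 38.5 in HZ vehicle (median 32.4), 25.5 to 40.9 in WT WY (median 32.5) and 22.02 to 44.2 in HZ WY (median 26.7), all overlapping. Its changes of 0.17 ± 0.17 and -0.02 ± 0.17 did not pass the test (edgeR adjusted p = 0.433 and 0.921). Sult2a7 was at 1.184 to 6.31 CPM in WT vehicle and 0.955 to 2.63 in WT WY, and its change of -0.94 ± 0.39 passed in WT (edgeR adjusted p = 0.0420) while -0.51 ± 0.37 in HZ did not (adjusted p = 0.248). The WT call was lost without a filter (-0.94, adjusted p = 0.0725), with limma (-0.74, adjusted p = 0.0675) and without WT vehicle 29, 32 or 37 or WT WY 6, 10, 11 or 25. The difference between these changes did not pass either (adjusted p = 0.817).

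**Figure D2:**
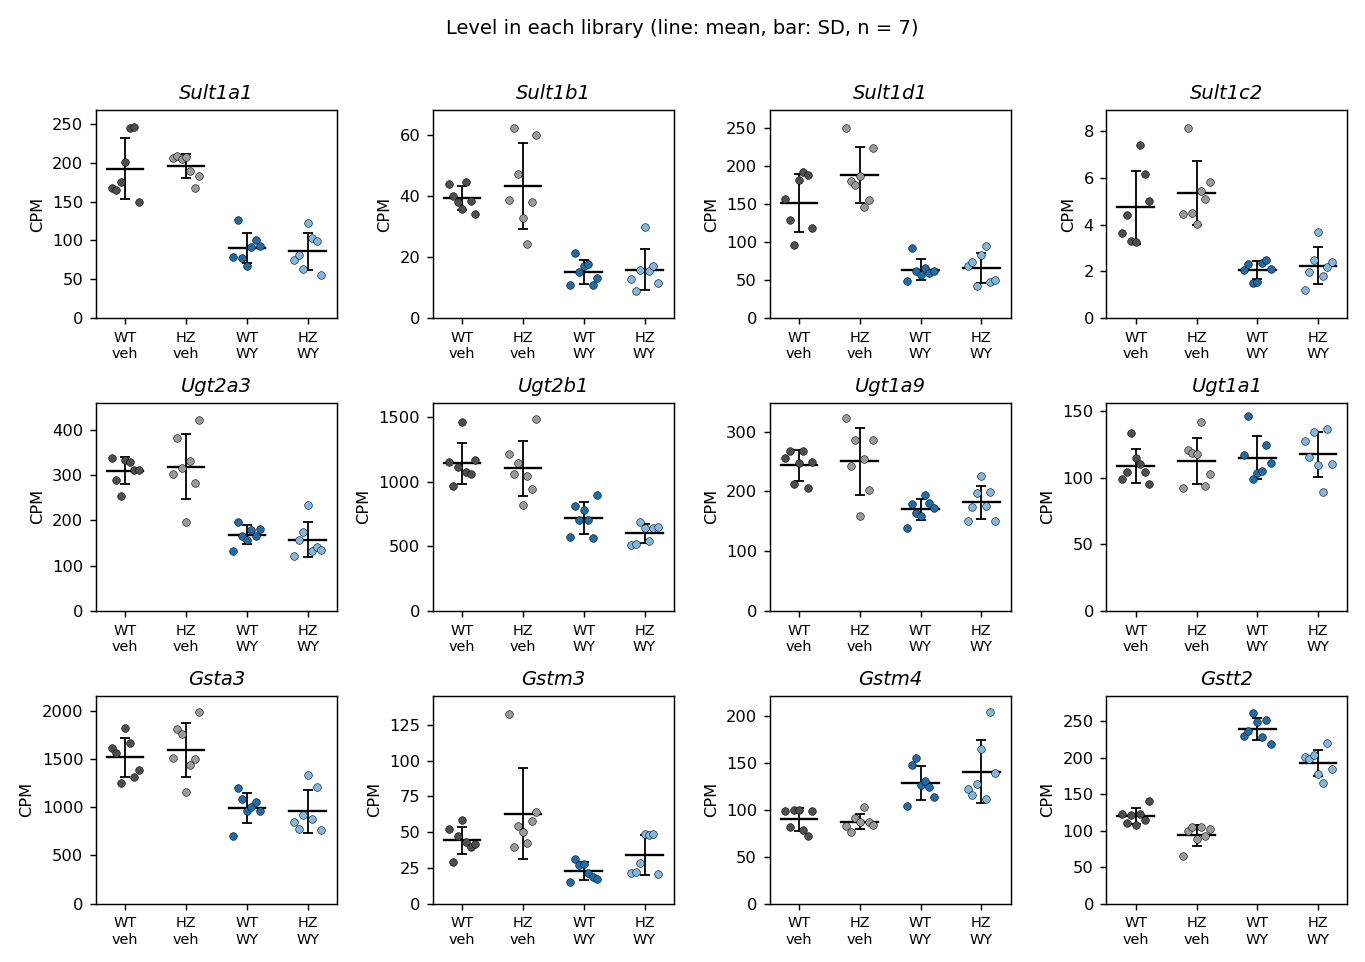
Level in CPM (y axes, from 0) of 12 enzyme genes in each of the 28 libraries by group (x axes), with the mean and SD of 7 libraries. The Sult1a1, Sult1d1 and Sult1c2 points under WY lie below the vehicle points within each genotype, those of Ugt1a1 overlap in all groups, and those of Gstt2 lie above under WY.

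The stretch before the start of transcription was read for members that moved together. RefSeq promoters (GRCm38.p6) were found for 34 of the 39 members, leaving out Gsta4, Gstt2, Sult2a7, Ugt1a6b and Ugt3a2, and 7 members had several starts. In the 250 bases before the start, 4 sequence patterns were searched on both strands. The D-box TTANGTAA, read by the clock output factors DBP, TEF and HLF among others, was found in Sult1a1, Ugt2b1 and Ugt1a9. These were 8.82% of the 34 members, beside 2.44% of all 27025 genes with a promoter. The antioxidant response element TGACNNNGC, read by Nrf2, was found in Gsta3, Gstm5 and Gstm7. These were 8.82% of the 34 members, below the 11.5% of all genes. The direct repeat spaced by 1 base (DR1), of the kind PPARα binds, was in 0 of the 34 and in 0.4% of all genes. The E-box CACGTG was in 0 of the 34 and in 6.86% of all genes. A match is a description of letters in this window and shows no binding, and the lack of one says nothing of the factor. The 3 promoters below are those of members that fell under WY and held the D-box. Each runs 5′ to 3′ on the strand of its gene, with the matched letters in capitals. Sult1a1 is chr7:126676419-126676668 and Ugt2b1 is chr5:86926504-86926753, both on the minus strand, and Ugt1a9 is chr1:88070529-88070778 on the plus strand.
Sult1a1: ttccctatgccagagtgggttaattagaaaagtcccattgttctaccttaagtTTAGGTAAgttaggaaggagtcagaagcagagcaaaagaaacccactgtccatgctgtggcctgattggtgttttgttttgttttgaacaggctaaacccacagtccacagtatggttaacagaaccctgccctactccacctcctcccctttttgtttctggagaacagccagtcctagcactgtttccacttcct
Ugt2b1: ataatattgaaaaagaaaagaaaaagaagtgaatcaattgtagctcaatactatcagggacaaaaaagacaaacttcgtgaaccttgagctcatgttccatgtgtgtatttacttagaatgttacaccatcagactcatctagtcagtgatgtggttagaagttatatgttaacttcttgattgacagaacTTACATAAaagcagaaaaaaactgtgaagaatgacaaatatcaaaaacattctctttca
Ugt1a9: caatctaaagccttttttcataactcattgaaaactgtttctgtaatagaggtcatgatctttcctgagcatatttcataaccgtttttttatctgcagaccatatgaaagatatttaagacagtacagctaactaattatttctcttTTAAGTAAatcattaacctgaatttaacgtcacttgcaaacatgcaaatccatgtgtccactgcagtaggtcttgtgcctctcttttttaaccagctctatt

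The D-box match began 197 bases before the start in Sult1a1, 59 in Ugt2b1 and 102 in Ugt1a9. Of 13 clock genes tested, 0 were higher and 5 lower under WY in WT (27.4% and 26.7% over all genes). In HZ, 1 was higher and 8 were lower (29.3% and 26.4% over all genes). Among them Nfil3 changed by -0.99 ± 0.24 and -1.25 ± 0.24, and Nr1d2 by -0.58 ± 0.15 and -0.91 ± 0.15. Values of Tef and Hlf are not given here, and whether each factor raises or lowers its targets was not examined. The D-box factor gene Dbp ran from 6.70 to 80.6 CPM in WT vehicle and 10.1 to 58.0 in WT WY, and from 12.7 to 59.0 in HZ vehicle and 2.26 to 23.6 in HZ WY, and the groups overlapped. Its changes were -0.34 ± 0.47 in WT and -1.89 ± 0.50 in HZ (edgeR adjusted p = 0.562 and 0.00231). The part of the clock genes in the enzyme changes was not tested.

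Most glucuronosyltransferases were lower under WY, by less than the sulfotransferases. Of the 14 UGT genes, 8 were lower and 1 higher in WT, and 9 were lower and 1 higher in HZ. Family sums were 4416 to 5575 CPM in WT vehicle (median 4948) and 3282 to 4137 in WT WY (median 3686), without overlap. In HZ they were 3527 to 5956 CPM (median 5091) and 3104 to 3850 (median 3411), where the ranges overlapped.

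Ugt2a3 had the largest fall of the 14 genes in both genotypes. It was at 253 to 337 CPM in WT vehicle (median 312) and 132 to 197 in WT WY (median 165), and at 196 to 423 in HZ vehicle (median 315) and 120 to 234 in HZ WY (median 142). The WT groups were apart and the HZ groups overlapped, with changes of -0.88 ± 0.14 and -1.02 ± 0.14 (edgeR adjusted p = 3.93e-06 and 3.71e-07). Ugt2b1, the UGT gene of highest CPM, was at 962 to 1463 CPM in WT vehicle (median 1113) and 564 to 893.5 in WT WY (median 704). Ranges in HZ were 822 to 1484 CPM (median 1061) and 512.5 to 684 (median 640.0). The groups were apart in both genotypes, with changes of -0.67 ± 0.12 and -0.88 ± 0.12 (edgeR adjusted p = 1.73e-05 and 2.67e-07).

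Neighbours in the Ugt2b cluster of chromosome 5 differed from each other. Ugt2b36 was at 802 to 1073 CPM in WT vehicle (median 941) and 557 to 718 in WT WY (median 661), and at 690 to 1250 in HZ vehicle (median 977) and 505 to 743 in HZ WY (median 579). It was lower in both genotypes (-0.54 ± 0.10 and -0.75 ± 0.10, edgeR adjusted p = 3.66e-05 and 2.60e-07). Ugt2b5, which is as abundant and shares sequence with Ugt2b38, was at 661 to 819 CPM in WT vehicle (median 760) and 667 to 825 in WT WY (median 720). In HZ it was at 495 to 942 CPM (median 731) and 522 to 706 (median 640). Its groups overlapped, with -0.01 ± 0.10 in WT and -0.25 ± 0.10 in HZ (edgeR adjusted p = 0.914 and 0.0342). The HZ call was lost without HZ vehicle 34, 36 or 38 or HZ WY 5, 14 or 21, with adjusted p up to 0.110. It was also lost without a filter and with the HZ groups alone, with adjusted p up to 0.128. Ugt2b34 changed by -0.40 in both genotypes and passed. Ugt2b35 did not pass (-0.12 and -0.27), and without the 5 HZ libraries set apart its HZ change passed (-0.27, edgeR adjusted p = 0.0400).

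Within the Ugt1a locus, Ugt1a9 was lower and Ugt1a1, the bilirubin enzyme, was not called. Both are named here after their values were seen. Ugt1a9 was at 205 to 268 CPM in WT vehicle (median 249) and 138 to 194 in WT WY (median 172), and at 159 to 322 in HZ vehicle (median 253.5) and 150.0 to 225 in HZ WY (median 176). The changes were -0.52 ± 0.12 and -0.46 ± 0.12 (edgeR adjusted p = 0.000410 and 0.00129). Ugt1a1 was at 95.2 to 133 CPM in WT vehicle (median 104.5), 92.4 to 141.5 in HZ vehicle (median 118), 99.0 to 146 in WT WY (median 111) and 88.9 to 137 in HZ WY (median 115). These ranges overlap throughout, with changes of 0.08 ± 0.10 and 0.06 ± 0.10 (edgeR adjusted p = 0.516 and 0.616). Ugt1a6a and Ugt1a6b, enzymes for planar phenols with shared sequence, changed by -0.48 and -0.49 in WT and by -0.32 and -0.42 in HZ, and all 4 changes passed. Ugt1a5 was at 4.85 to 15.7 CPM in WT vehicle (median 8.35) and 3.50 to 10.7 in WT WY (median 4.001), which overlap. Its change of -0.79 ± 0.31 passed in WT (edgeR adjusted p = 0.0318) and -0.68 ± 0.30 in HZ did not (0.0593). The WT call was lost without WT vehicle 29 or 32 or WT WY 6, 10, 20 or 24, and also without a filter.

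The Ugt3a genes, whose products use sugars other than glucuronate, went apart. Ugt3a1 was higher under WY, at 16.9 to 32.45 CPM in WT vehicle (median 28.2), 27.3 to 40.3 in WT WY (median 33.0), 15.9 to 24.7 in HZ vehicle (median 18.8) and 19.35 to 36.8 in HZ WY (median 31.5). Vehicle and WY libraries overlapped, and the changes were 0.44 ± 0.16 and 0.56 ± 0.17 (edgeR adjusted p = 0.0247 and 0.00557). Without the 5 HZ libraries set apart, the HZ value was 0.43 (adjusted p = 0.109), and the WT call was lost without WT vehicle 31, 37 or 78 or WT WY 20 or 24. Ugt3a2 passed in HZ, at -0.16 ± 0.06 (edgeR adjusted p = 0.0328), beside -0.09 ± 0.06 in WT, and the difference between these did not pass (adjusted p = 0.831). The HZ call was lost without the 5 HZ libraries set apart (-0.18, adjusted p = 0.0685), with the HZ groups alone (-0.14, adjusted p = 0.0979), without a filter (-0.15, adjusted p = 0.0737) and without HZ vehicle 36, 38 or 39 or HZ WY 5, 15 or 17.

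The glutathione S-transferases moved in both directions. Of the 18 GST genes, 4 were higher and 5 lower in WT, and 5 were higher and 5 lower in HZ, which is near the share of all genes. Family sums were 4270 to 5011 CPM in WT vehicle (median 4658), 3571 to 4534 in WT WY (median 4317), 4077 to 5566 in HZ vehicle (median 4797) and 3425 to 4715 in HZ WY (median 3805), and the groups overlapped.

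Gstt2, a theta class enzyme on chromosome 10 (GRCm38, 75831114 to 75837424, minus strand), had the largest rise of the 39. It was at 108 to 140 CPM in WT vehicle (median 121) and 218.5 to 262 in WT WY (median 236.5), and at 65.1 to 106 in HZ vehicle (median 99.1) and 166 to 220.4 in HZ WY (median 198.5). Every WY library lay above every vehicle library of either genotype. The changes were 0.99 ± 0.08 and 1.04 ± 0.08, that is 1.99-fold and 2.05-fold (edgeR adjusted p = 1.73e-10 and 6.98e-11). The other theta class members changed less or did not pass, with Gstt1 at 0.13 ± 0.08 in WT and 0.21 ± 0.08 in HZ (edgeR adjusted p = 0.172 and 0.0245) and Gstt3 at -0.36 ± 0.20 and 0.20 ± 0.20 (adjusted p = 0.133 and 0.428). The Gstt1 call in HZ was lost with limma (0.14, adjusted p = 0.112) and without HZ vehicle 34 or 38 or HZ WY 2.

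In the mu class, whose genes lie together on chromosome 3, genes moved in both directions. Gstm4 was at 71.8 to 100.2 CPM in WT vehicle (median 98.6) and 104 to 156 in WT WY (median 126), and at 77.0 to 104 in HZ vehicle (median 86.7) and 112 to 205 in HZ WY (median 128). The groups were apart in both genotypes, with rises of 0.52 ± 0.11 and 0.68 ± 0.11 (edgeR adjusted p = 0.000361 and 1.08e-05). Gstm3 was at 28.8 to 58.4 CPM in WT vehicle (median 43.0) and 15.4 to 31.5 in WT WY (median 21.3), and at 39.7 to 133 in HZ vehicle (median 54.1) and 20.6 to 48.9 in HZ WY (median 28.5). Its groups overlapped, with changes of -0.97 ± 0.26 and -0.89 ± 0.26 (edgeR adjusted p = 0.00328 and 0.00523). Without the 5 HZ libraries set apart, among them the one at 133 CPM, its HZ change was -0.49 (adjusted p = 0.113).

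Gstm1 was at 620.1 to 886.5 CPM in WT vehicle (median 702), 519 to 670.5 in WT WY (median 573), 551 to 975 in HZ vehicle (median 740.0) and 448 to 797 in HZ WY (median 575). The overlapping groups gave -0.28 ± 0.12 in WT and -0.35 ± 0.12 in HZ (edgeR adjusted p = 0.0444 and 0.0132). The WT call was lost in 10 of 28 fits without 1 library (WT vehicle 29, 37, 74 or 78, or WT WY 6, 10, 11, 20, 24 or 25). It was also lost with vehicle libraries 29 to 39 alone (-0.19, adjusted p = 0.260) and without a filter (-0.28, adjusted p = 0.0592). The HZ call was lost without the 5 libraries set apart (-0.20, adjusted p = 0.165) and with the HZ groups alone (-0.33, adjusted p = 0.0632). Gstm6 was at 22.9 to 39.3 CPM in WT vehicle (median 35.5) and 10.9 to 25.1 in WT WY (median 19.6), a change of -0.82 ± 0.27 (edgeR adjusted p = 0.0134). In HZ it was at 13.6 to 51.3 CPM (median 25.9) and 11.8 to 46.1 (median 20.0), and its change of -0.21 ± 0.27 did not pass. Gstm7 was at 65.8 to 95.05 CPM in WT vehicle (median 85.2), 71.0 to 106 in WT WY (median 89.45), 62.4 to 82.9 in HZ vehicle (median 73.4) and 76.5 to 109 in HZ WY (median 92.95). It was higher in HZ (0.32 ± 0.08, edgeR adjusted p = 0.00170) and did not pass in WT (0.09 ± 0.08). The interaction passed for neither Gstm6 nor Gstm7 (adjusted p = 0.639 and 0.550).

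Gsta3, an alpha class enzyme and the GST gene of highest CPM, was at 1252 to 1821 CPM in WT vehicle (median 1566) and 701 to 1200 in WT WY (median 1006). In HZ it was at 1161 to 1989 CPM (median 1508) and 763 to 1332 (median 875). The WT groups were apart and the HZ groups overlapped, with changes of -0.61 ± 0.13 and -0.73 ± 0.13 (edgeR adjusted p = 0.000257 and 2.44e-05). Gstz1, the maleylacetoacetate isomerase of tyrosine breakdown, was at 936 to 1091 CPM in WT vehicle (median 1024), 735 to 928 in WT WY (median 870.4), 818 to 1087 in HZ vehicle (median 963) and 729 to 982 in HZ WY (median 796). The smaller changes of -0.24 ± 0.07 and -0.22 ± 0.07 passed (edgeR adjusted p = 0.00775 and 0.0128). The HZ call was lost with the HZ groups alone (-0.20, adjusted p = 0.0707). Gstk1, the kappa class enzyme of mitochondria and peroxisomes, was named after its values were seen. It was at 129 to 165 CPM in WT vehicle (median 146), 168 to 190 in WT WY (median 187), 111 to 137 in HZ vehicle (median 133) and 135 to 187 in HZ WY (median 158). It was higher under WY in both genotypes (0.28 ± 0.07 and 0.30 ± 0.07, edgeR adjusted p = 0.000574 and 0.000292).

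Between genotypes, 1 of the 39 genes was called, which is near the share of all genes, and the others were not shown to be equal. Gstt2 was lower in HZ under vehicle (-0.35 ± 0.08, edgeR adjusted p = 0.0264), where 2.07% of all genes were called, and under WY (-0.31 ± 0.08, adjusted p = 0.0366), where 3.16% were. Lower calls made up 1.77% and 1.74% of all genes, and higher calls 0.301% and 1.42%. Under WY, all genes split into 179 higher and 219 lower calls, and with DESeq2 size factors into 203 and 480. Under vehicle the HZ libraries, at 65.1 to 106 CPM, lay below all WT libraries, at 108 to 140 CPM, and 0.23% of all genes were lower and 0.0397% higher without overlap. Under WY the ranges of 166 to 220.4 and 218.5 to 262 CPM overlapped at their ends, so that 0 members were without overlap there, beside 1.35% of all genes (0.896% lower and 0.452% higher).

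The Gstt2 calls did not hold in every fit. Under vehicle the call was lost without HZ library 30, 35 or 38, without WT library 32 or 74, with the vehicle libraries alone (-0.34, edgeR adjusted p = 0.181), without the 5 HZ libraries set apart (-0.25, adjusted p = 0.151) and with vehicle libraries 29 to 39 alone (-0.40, adjusted p = 0.113). Under WY it was lost without WT library 10, 11, 19, 20 or 25, without HZ library 5, 15, 18 or 21, with no filter on low counts (-0.31, adjusted p = 0.0574) and without the 5 HZ libraries (-0.28, adjusted p = 0.0628). In the fits that left out 1 library the value stayed between -0.38 and -0.28 under vehicle and between -0.34 and -0.28 under WY.

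**Figure D3:**
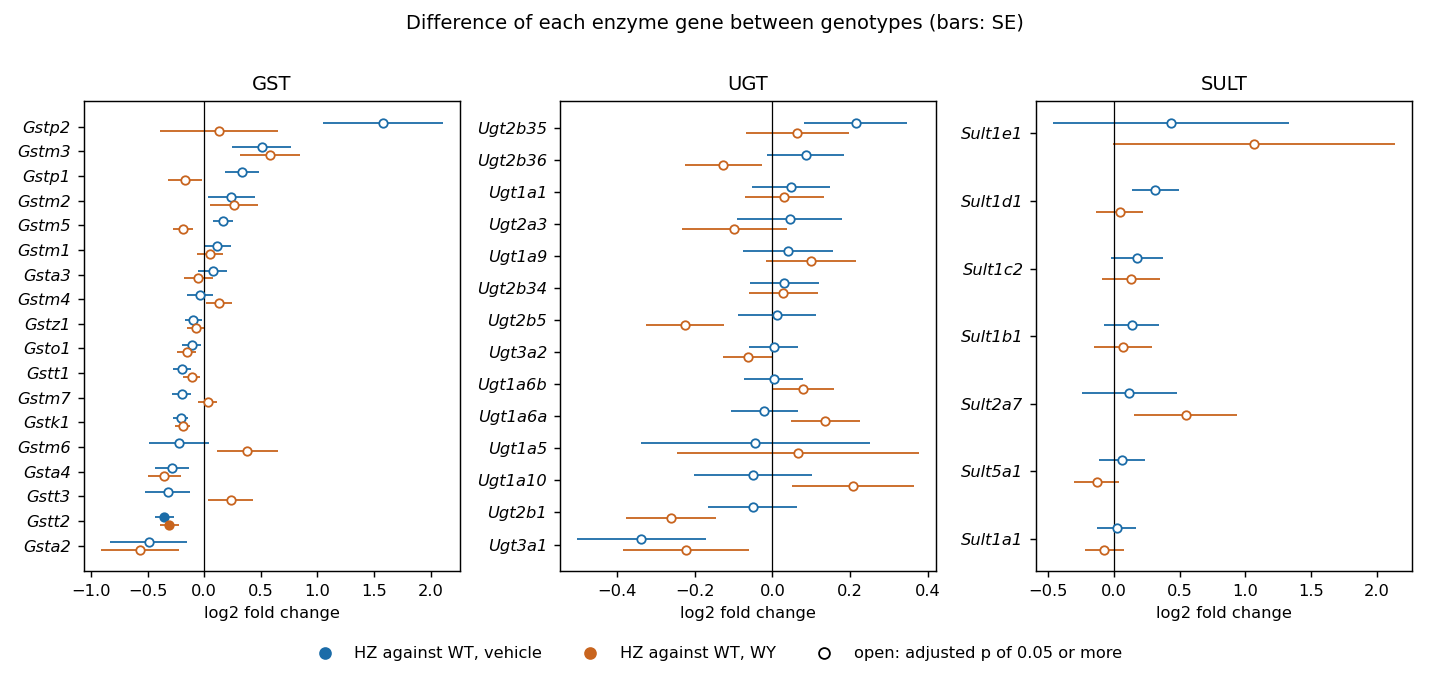
Log2 difference of HZ against WT for each of the 39 enzyme genes (x axis), with SE, under vehicle (blue) and WY (orange), in 1 panel per family. Filled points, which passed an adjusted p below 0.05, are those of Gstt2 at -0.35 and -0.31, and the wide bars belong to low or variable genes such as Gstp2 and Sult1e1.

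Gstk1 lay in the same direction without passing, at -0.21 ± 0.07 under vehicle and -0.19 ± 0.07 under WY (edgeR adjusted p = 0.0893 and 0.0804). DESeq2 and limma called it under WY, with adjusted p = 0.0296 and 0.0293. Gstp2 had the largest difference, 1.58 ± 0.53 under vehicle, and did not pass (edgeR adjusted p = 0.116), while DESeq2 called it (adjusted p = 0.0417). Its HZ vehicle libraries ran from 4.23 to 54.2 CPM around a median of 14.9, and WT vehicle libraries from 3.43 to 10.48 around 5.56. Gstp2 was named after its values were seen, and reads it shares with Gstp1 may have been left out of its count. For the SULT and UGT families 0 of 21 genes passed in either genotype comparison, and 2 UGT genes had an unadjusted p under 0.05 under WY. DESeq2 and limma called 0 of them too. The median SE under vehicle was 0.108 for UGT and 0.197 for SULT genes on the log2 scale.

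The WY response of no member differed between genotypes by the interaction test, in edgeR, DESeq2 or limma, and 2 members had an unadjusted p under 0.05. Of all 12607 genes, edgeR called 0%, with 1182 at an unadjusted p under 0.05, DESeq2 called 3 and limma 1. The members with the smallest p were Gstm5 and Gstp1. Gstm5, a low mu class transcript, was at 8.48 to 10.3 CPM in WT vehicle (median 9.84), 7.17 to 11.8 in WT WY (median 10.47), 9.70 to 13.3 in HZ vehicle (median 10.1) and 7.26 to 10.4 in HZ WY (median 9.10). Its changes under WY were 0.10 ± 0.09 in WT and -0.25 ± 0.09 in HZ, a difference of -0.36 ± 0.13 (edgeR adjusted p = 0.416). Gstp1, the pi class enzyme, was at 348 to 571 CPM in WT vehicle (median 485), 408 to 771 in WT WY (median 664), 455 to 666.5 in HZ vehicle (median 611) and 407 to 780.2 in HZ WY (median 553). It was higher under WY in WT (0.44 ± 0.15, edgeR adjusted p = 0.0146) and not called in HZ (-0.06 ± 0.15), a difference of -0.50 ± 0.21 (adjusted p = 0.490). The WT rise was 0.41 with vehicle libraries 29 to 39 alone (adjusted p = 0.0621). The Gstm5 change in HZ was -0.20 without the 5 HZ libraries set apart (adjusted p = 0.144), and it also did not pass without HZ vehicle 35.

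Single libraries stood far from their groups in several members. Sult1e1, named after its values were seen, was at 7.05, 13.4 and 6.86 CPM in WT vehicle 29, HZ vehicle 38 and HZ WY 21, where the next highest libraries of those groups were at 1.71, 0.829 and 0.490 CPM. Its group medians were 0.396 to 0.752 CPM, so it met the minimum mean of 1 CPM only through these libraries. Gstm3 and Gstm2 were highest in HZ vehicle 38 as well, at 133 and 68.3 CPM, as was Gstp2 at 54.2 CPM. In HZ vehicle 38, 16606 genes had reads, the most of the 28 libraries (median 15296), and its TMM factor of 1.07 was the highest. That library also held 59.9 CPM of Spp1, and HZ WY 21 held 88.2 CPM, beside group medians of 22.3 to 26.0 CPM. The 6 cholangiocyte markers, Spp1 among them, summed to 26.7 to 69.2 CPM in HZ vehicle and 21.95 to 97.4 CPM in HZ WY, highest in these libraries, and to 29.4 to 37.7 CPM in WT vehicle and 26.0 to 37.7 CPM in WT WY. The defining markers Krt19 and Krt7 were near 0 throughout, at 0.426 and 0.5684 CPM in HZ vehicle 38 and at 0.576 and 0.288 CPM in HZ WY 21. Markers of other cells reached their highest sums in HZ too: 7 Kupffer cell and macrophage genes summed to at most 583 CPM in HZ vehicle and 640 CPM in HZ WY, against 414 and 315 CPM in the WT groups. For 5 neutrophil and monocyte genes the highest sums were 20.4 and 23.98 CPM against 9.43 and 5.61 CPM, and for 6 stellate cell and fibroblast genes 406 and 377 CPM against 328 and 270.0 CPM. In HZ vehicle 38 and HZ WY 21, the monocyte gene Ccr2 was at 9.99 and 12.5 CPM and the collagen gene Col3a1 at 22.4 and 41.6 CPM, and no other library was as high. The part of these cells in the enzyme levels was not tested.

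HZ vehicle 30 was lowest in its group for 17 of the 39 genes, 9 of them UGT genes, and WT WY 10 for 20. Gsta4, an alpha class enzyme for lipid aldehydes, was at 26.4 CPM in HZ vehicle 30 beside 38.0 to 73.9 CPM in the others of that group. WT WY 11 and HZ WY 18 were each highest in their group for 16 of the 39. Nnmt, a methyltransferase, was at 136 CPM in HZ vehicle 30, in a group with a median of 13.0 CPM.

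**Figure D4:**
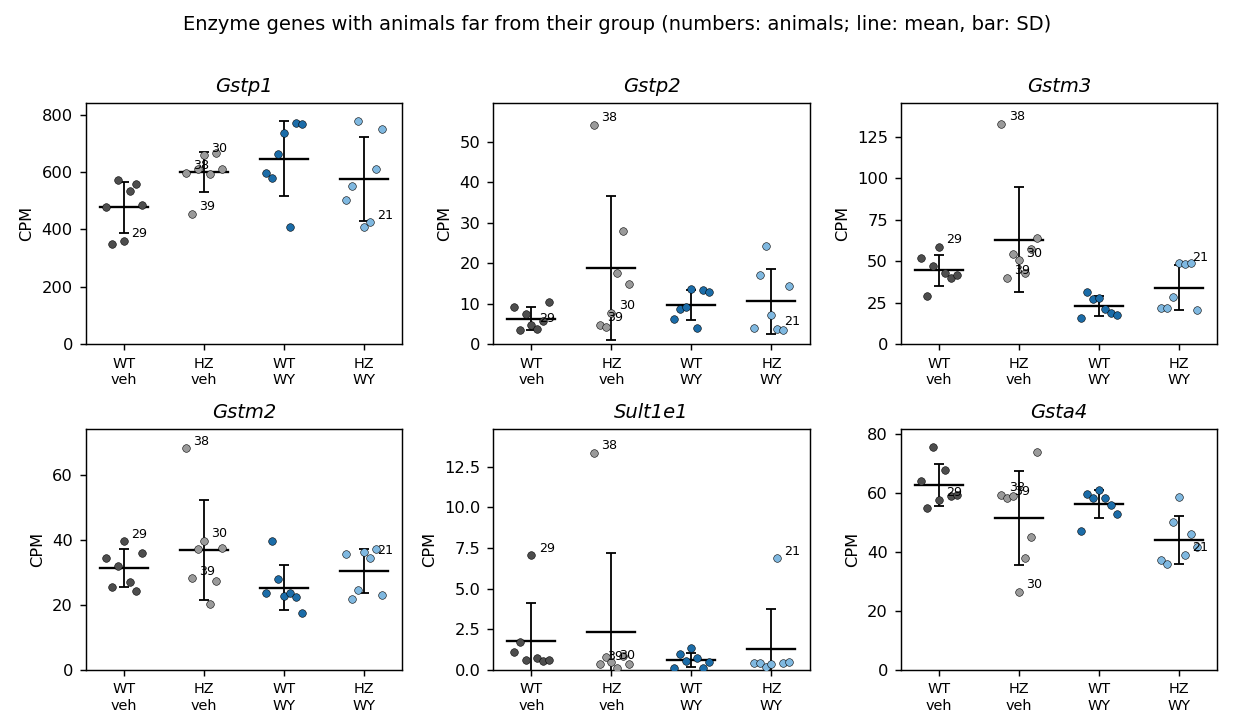
Level in CPM (y axes, from 0) of 6 enzyme genes by group (x axes) with the mean and SD of 7 libraries, where numbers mark WT vehicle 29, HZ vehicle 30, 38 and 39, and HZ WY 21. Library 38 is the highest HZ vehicle point for Gstp2, Gstm3, Gstm2 and Sult1e1, and library 30 the lowest for Gsta4.

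Genes that make, carry, use or remove the conjugating groups moved in both directions under WY. For UDP-glucuronate supply and removal, 1 of 8 genes tested was higher and 2 lower in WT (27.4% and 26.7% over all genes). In HZ, 0 were higher and 3 lower (29.3% and 26.4% over all genes). Ugp2, which makes UDP-glucose, was at 259 to 477 CPM in WT vehicle (median 285.5) and 114 to 138 in WT WY (median 128), and at 302 to 504 in HZ vehicle (median 433) and 106 to 169 in HZ WY (median 127). The groups were apart, with changes of -1.35 ± 0.13 and -1.70 ± 0.13 (edgeR adjusted p = 1.78e-09 and 4.97e-11). Ugdh, the next step, which makes UDP-glucuronate, was at 239 to 405 CPM in WT vehicle and 289 to 386 in WT WY, with 0.03 ± 0.11 and -0.04 ± 0.11 in WT and HZ (adjusted p = 0.857 and 0.780). Slc35d2, a nucleotide sugar transporter, was lower in both (-0.51 ± 0.08 and -0.52 ± 0.08).

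For sulfate donor supply, use and removal, 3 of 14 genes tested were higher and 5 lower in WT (27.4% and 26.7% over all genes). In HZ, 5 were higher and 3 lower (29.3% and 26.4% over all genes). Cdo1, the cysteine dioxygenase on the way from cysteine to sulfate, had the smallest p in both, at -1.32 ± 0.14 and -1.64 ± 0.14 (edgeR adjusted p = 4.52e-09 and 1.38e-10). Its libraries ran from 961 to 1494 CPM in WT vehicle, 385.5 to 585 in WT WY, 990.2 to 2114 in HZ vehicle and 345 to 557 in HZ WY. Arsa, a lysosomal sulfatase, was higher by 0.54 ± 0.10 in both, and Tpst1, a tyrosylprotein sulfotransferase, changed by -0.59 ± 0.12 and -0.95 ± 0.12. Papss2, a PAPS synthase, was at 193 to 241.5 CPM in WT vehicle and 100.1 to 188 in WT WY (-0.45 ± 0.11, edgeR adjusted p = 0.00112). The HZ values were 198 to 240 CPM and 130.02 to 240 CPM, and -0.15 ± 0.11 did not pass.

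For glutathione supply and use, 9 of 26 genes tested were higher and 9 lower in WT (27.4% and 26.7% over all genes). In HZ, 12 were higher and 6 lower (29.3% and 26.4% over all genes). Gclm, the modifier subunit of glutamate-cysteine ligase, was at 192 to 234 CPM in WT vehicle and 144 to 167 in WT WY, and at 205 to 236.5 in HZ vehicle and 129 to 172 in HZ WY. It was lower without overlap in both (-0.48 ± 0.06 and -0.54 ± 0.06, edgeR adjusted p = 1.31e-07 and 1.55e-08). The catalytic subunit Gclc changed by -0.51 ± 0.12 in WT and -0.16 ± 0.12 in HZ, and the second did not pass. Gss, glutathione synthetase, was higher by 0.54 ± 0.09 and 0.44 ± 0.09, and Gsr, glutathione reductase, by 0.32 ± 0.07 and 0.41 ± 0.07. Oplah, the enzyme that opens oxoproline, was higher by 0.98 ± 0.14 and 1.27 ± 0.14 (edgeR adjusted p = 6.80e-07 and 9.26e-09). Mgst1, a membrane-bound GST outside the chosen symbols, was at 3361 to 4082 CPM in WT vehicle and 3251 to 4342 in WT WY and did not pass (0.11 ± 0.07). Ugdh, Papss2, Gclc, Gss, Gsr and Mgst1 are named for their place in these routes, chosen after their values were seen.

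**Figure D5:**
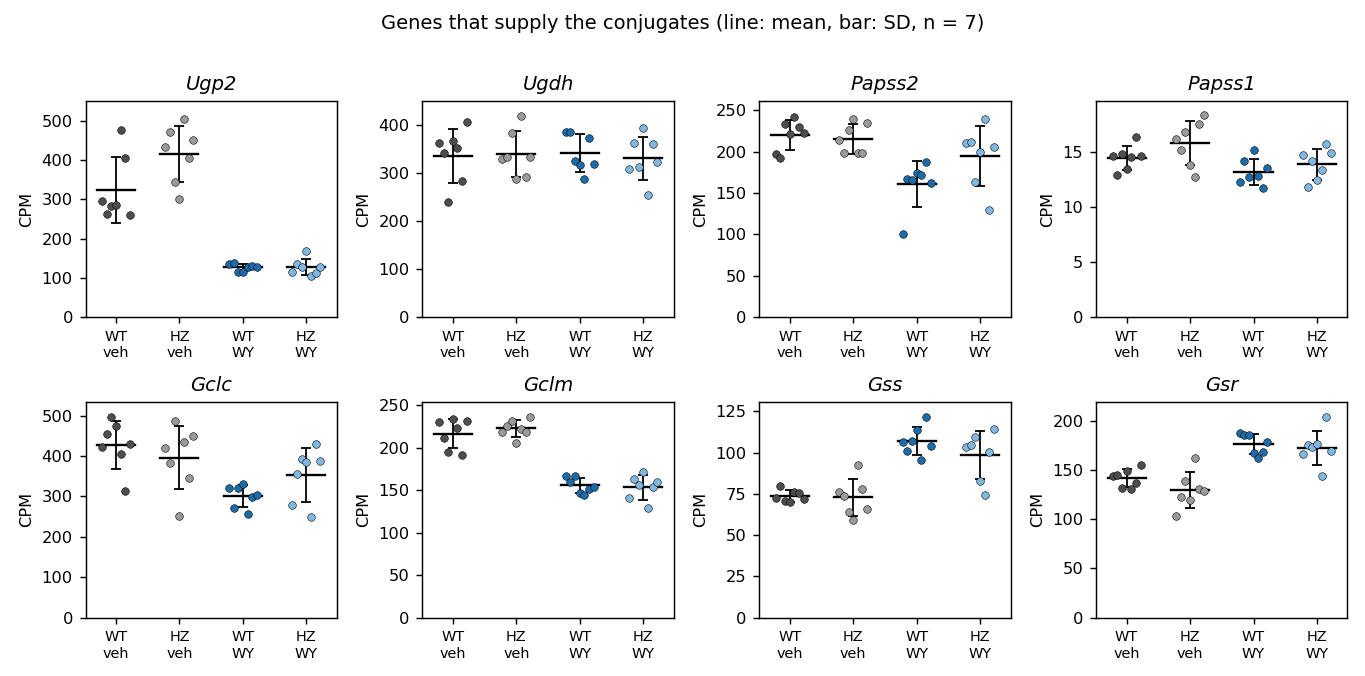
Level in CPM (y axes, from 0) of 8 genes that supply UDP-glucuronate, PAPS or glutathione, in each library by group (x axes), with the mean and SD of 7 libraries. The Ugp2 and Gclm points under WY lie below the vehicle points, those of Ugdh overlap in all groups, and the means of Gss and Gsr are higher under WY.

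Of 13 genes for export and uptake of conjugates, 1 was higher and 8 lower in WT (27.4% and 26.7% over all genes). In HZ, 2 were higher and 6 lower (29.3% and 26.4% over all genes). Among uptake carriers, Slco1a1 changed by -1.10 ± 0.13 and -1.43 ± 0.14, Slco1a4 by -2.65 ± 0.32 and -2.98 ± 0.32, and Slco1b2 by -0.90 ± 0.12 and -1.38 ± 0.12 (edgeR adjusted p at most 5.20e-07). The canalicular exporter Abcg2, which carries sulfate conjugates, was higher (0.68 ± 0.10 and 0.81 ± 0.10), and Abcc2, which carries glucuronides and glutathione conjugates, was lower (-0.36 ± 0.12 and -0.30 ± 0.12). The Abcc2 call in HZ was lost in 6 of 28 fits without 1 library, with edgeR adjusted p up to 0.0947. It was also lost with limma, without a filter and with the HZ groups alone. With vehicle libraries 29 to 39 alone, Abcc2 passed in neither genotype (edgeR adjusted p = 0.0833 in WT and 0.107 in HZ). Abcg2 and Abcc2 were named for these roles after their values were seen. Of 14 other conjugating enzymes, 9 were lower and 1 higher in WT, and 8 lower and 1 higher in HZ, led by the thiopurine methyltransferase gene Tpmt (-0.69 ± 0.09 and -0.86 ± 0.09) and Baat, which joins bile acids to taurine and glycine (-0.60 ± 0.08 and -0.72 ± 0.08).

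Of 18 regulators of these enzymes tested, 1 was higher and 8 lower under WY in WT (27.4% and 26.7% over all genes). In HZ, 2 were higher and 7 lower (29.3% and 26.4% over all genes). Ahr, the aryl hydrocarbon receptor, was at 47.4 to 72.2 CPM in WT vehicle and 19.6 to 41.9 in WT WY, and changed by -0.94 ± 0.12 and -1.17 ± 0.12 (edgeR adjusted p = 3.44e-07 and 7.74e-09). The glucocorticoid receptor gene Nr3c1 changed by -0.47 ± 0.06 and -0.52 ± 0.06, and Keap1, the Nrf2 inhibitor, by 0.43 ± 0.06 and 0.45 ± 0.06. The transcripts of CAR (Nr1i3) and PXR (Nr1i2) did not pass in either genotype. Ppara was lower in HZ under vehicle (-0.36 ± 0.09, edgeR adjusted p = 0.0442) and did not pass without the 5 HZ libraries set apart (-0.37, adjusted p = 0.133), with the vehicle groups alone (-0.35, adjusted p = 0.184), with vehicle libraries 29 to 39 alone (-0.22, adjusted p = 0.412) or in 15 of the 28 fits without 1 library. Under WY, 0 of the 18 regulators were lower in HZ and 3 were higher (Arnt, Esr1 and Stat5b), beside 1.74% lower and 1.42% higher over all genes. The 3 calls were lost without the 5 HZ libraries set apart (edgeR adjusted p = 0.1245, 0.1767 and 0.1405), and also without a filter. They were lost in 12, 9 and 5 of the 28 fits without 1 library. Of 19 targets of these regulators outside the families, 8 were higher and 2 lower in WT, and 7 were higher and 5 lower in HZ. The Nrf2 target Srxn1 was higher by 0.77 ± 0.12 and 1.12 ± 0.12. Cyp2b10, a CAR target, was at 2.27 to 21.6 CPM in WT vehicle and 0.212 to 1.32 in WT WY, with changes of -3.40 ± 0.64 and -2.90 ± 0.60. Nr1i3, Nr1i2 and Cyp2b10 were named after their values were seen.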

How the data were processed

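RNA-seq was made from 28 liver libraries, 7 in each group. Per the submitters' processing notes, the tools were STAR 2.5.0a, HTSeq 0.6.1p1 and DESeq2 1.18.1 with genome mm10, while the annotation and strand used for counting were, in the sources used here, not given. The deposited values are raw read counts per gene symbol, in 1 table for vehicle and 1 for WY. The 5 HTSeq summary rows per table, and 25 and 27 symbols turned into dates, were left out, which left 23393 genes. In those summary rows, alignments not placed uniquely made up 35.8 to 42.6% of all counts of a library, and counts outside genes 6.35 to 9.08%. Whether a read with several alignments was counted once is not given, so these need not be shares of reads. The share outside genes separated the treatments, with 7.85 to 9.08% over vehicle libraries but 6.35 to 7.82% over WY libraries. Even the lowest vehicle library thus exceeded the highest WY library, and the source of this gap was not tested.

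The 4 groups were fitted together with edgeR 4.0.16 (R 4.3.3), with TMM scaling, its filter on low counts (12607 genes kept), a robust quasi-likelihood fit with 24 residual degrees of freedom, 5 contrasts and Benjamini-Hochberg adjustment over all genes tested, with calls at an adjusted p below 0.05. Log2 CPM used a prior count of 2. Each SE was taken as the log2 change over the square root of F. Alternatives were DESeq2 size factors, no filter, a mean of at least 5 CPM, DESeq2 1.42.0, limma 3.58.1 with voom quality weights, only the groups compared, libraries left out singly, 5 HZ libraries left out together, and vehicle libraries 29 to 39 only. The scripts were tested on simulated counts. Promoters came from RefSeq (GRCm38.p6) and gene positions from GENCODE M21 (GRCm38).

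The members, lists and tests were chosen with earlier results of these data known. Genes were named by rule: in each family the 3 of highest mean CPM and the 3 largest called rises and falls in each WY comparison, every member called between genotypes, the 2 smallest p of the interaction, and in each list the called genes with the 2 smallest p. Others are named as chosen after their values were seen, as are Sult2a7, Ugt2b34, Ugt2b35, Ugt1a6a, Ugt1a6b, Ugt3a2, Gstt1, Gstt3, Gstm2, Gsta4, Arnt, Dbp, Nnmt, Ccr2, Col3a1, Spp1, Krt7 and Krt19.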

Additional observations from a re-analysis of the deposited data

Results flagged for a closer look

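Of 156 sets of 7 libraries (39 genes in 4 groups), 13 held a library whose gap to its nearest neighbour, as a share of the group's range and on the log2 CPM scale, exceeded Dixon's 95% value for 7. Levels below are in CPM. Chance alone marks about 5% of such sets. Sult1e1 accounted for 3 of them, at 7.05 CPM in WT vehicle 29, 13.4 CPM in HZ vehicle 38 and 6.86 CPM in HZ WY 21, each the highest of its group. Its group medians were 0.396 to 0.752 CPM, so it met the minimum mean of 1 CPM only through these 3 libraries. Its flags thus follow in part from how members were chosen and cannot be set beside the 5%. HZ vehicle 38 was also the highest for Gstm3, at 133 CPM beside a next value of 63.8, and the lowest for Gstt2, at 65.1 CPM beside 88.2. HZ vehicle 39 was the lowest for Gstp1, at 455 CPM beside 593.

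WT WY 10 was the lowest for Gsta3, at 701 CPM beside 958, and for Ugt1a6a, at 13.0 CPM beside 17.2. WT vehicle 31 was the lowest for Gstm7, at 65.8 CPM beside 84.2, and for Ugt1a6b, at 17.1 CPM beside 19.6. WT WY 25 was the lowest for Gstm5, at 7.17 CPM beside 9.95. WT vehicle 29 was the highest for Ugt2b34, at 772 CPM beside 632, and WT WY 11 for Ugt1a5, at 10.7 CPM beside 5.41.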

How the results depend on the processing

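Of 36 calls of genes named by the rule, 24 held in every setting that tested the gene. Of the rest, 7 were lost in at least 1 of the 28 fits without 1 library and 11 in at least 1 other setting, and 0 reversed. Sult1c2 was not tested in the fit with a mean of at least 5 CPM. Members called under WY numbered 20 to 24 in WT and 22 to 26 in HZ in the fits without 1 library. The single genotype call of a member became 0 to 2 in those fits, under vehicle and under WY. Under vehicle it became 2 with DESeq2 and 0 with only the groups compared, without the 5 HZ libraries, and with vehicle libraries 29 to 39. Under WY it became 0 without a filter, 2 with DESeq2, 2 with limma, and 0 without the 5 HZ libraries. The cause was not tested. The interaction called 0 members in every fit. Over all genes, the 261 genotype calls under vehicle became 146 without a filter, 500 with DESeq2, 729 with limma and 0 in the other 3 settings named. The 398 under WY became 683 with DESeq2 size factors, 153 without a filter, 1102 with DESeq2, 968 with limma and 48 without the 5 HZ libraries. No paired analysis was possible because the groups share no replicate number. Low members such as Sult1e1, Sult2a7 and Sult1c2 carry few reads, and those under a mean of 5 CPM have no value in the fit with that minimum.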
